A study of Mus musculus with 26 samples.

Results

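The genes examined were 7 enzymes of heme synthesis (Alas1, Alad, Uros, Urod, Cpox, Ppox and Fech) and 2 genes of electron supply to cytochrome P450 (Por and Cyb5a). They are 9 of the 47643 genes in the count table, were picked by symbol and not by a measured value, and all 9 passed the filter on low counts in every comparison. The enzyme that acts between Alad and Uros was not analysed here.

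Heme is made in a chain of enzymatic steps that begins and ends in the mitochondrion, and in the liver much of it becomes the prosthetic group of P450 enzymes. Alas1 makes 5-aminolevulinic acid, the first and rate-limiting step outside red cell precursors, and is itself held down by heme. Alad, Uros, Urod, Cpox and Ppox turn that precursor into protoporphyrin, and Fech inserts the iron. P450 enzymes of the endoplasmic reticulum receive their electrons from Por, the NADPH-cytochrome P450 reductase, and for some reactions from Cyb5a, cytochrome b5.

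Messenger RNA was sequenced from mouse liver in 26 libraries of 10 groups, which form 5 comparisons with a control each. Wild-type C57BL/6J mice aged 8 weeks received TCPOBOP, an agonist of the nuclear receptor CAR (gene Nr1i3), or corn oil (2 libraries each). The titles give 36 h after injection and the source names 6 h, so the time is uncertain. Fxr-/- Shp-/- mice, which lack a bile acid receptor and a repressor that it induces, were compared with wild type (C57BL/6J, 12 weeks, 3 each). C3H/HeN mice aged 8 to 10 weeks were sampled at 48 h after partial hepatectomy (labelled PHx) or as sham controls at 0 h (3 each), so that comparison also differs in time. Mice of these 3 experiments fed freely. Hepatocytes came from wild-type C57BL/6J mice on a 60% high fat diet or chow, at 16 weeks after a 10 h fast (2 each). C57BL/6J mice carrying fl/fl Fxr and fl/fl Shp alleles, for which no Cre is named, received a cholic acid diet or chow at 10 to 12 weeks and were fasted for 8 to 10 h (3 each). Nothing in the labels says whether replicates were separate mice or pools, so p-values measure the spread between these samples.

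Gene counts per library ranged from 13949059 to 70367874. In Fxr-/- Shp-/- livers, Nr0b2 (Shp) fell from 18.97 ± 8.04 to 1.15 ± 0.544 CPM (read counts scaled to library size, with TMM; SD, n = 3) and Nr1h4 (Fxr) from 144 ± 23.3 to 59.7 ± 4.78. A fall of Nr1h4 was not particular to this genotype. Floxed mice read 134 ± 12.2 CPM on chow and 66.6 ± 13.1 CPM on cholic acid (SD, n = 3). The hepatocyte marker list was present in every library, with 0 of 7 genes at 0. The library labelled corn oil 1 went against its label: Cyp2b10, the standard CAR target, was at 3786 CPM there, against 10.3 in corn oil 2 and 3465 and 3079 with TCPOBOP. The chow-fed floxed library 3 also stood apart, correlating with its group at 0.950 and 0.954 over genes where the other pair correlated at 0.989. Calls in the 2 comparisons that hold these libraries are given with and without them.

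Compared per length of transcript, Cyb5a and Por were the most abundant of the 9 transcripts in 8 of 10 groups, and Uros and Ppox the least abundant in all 10. In wild-type liver Cyb5a stood at 310.0 ± 11.0 RPKM (CPM divided by exon length in kilobases; SD, n = 3), Por at 278 ± 69.5 and Alas1 at 63.9 ± 10.0. The later enzymes followed, with Alad at 41.0 ± 0.451, Urod at 30.4 ± 1.59, Cpox at 25.9 ± 1.84 and Fech at 14.8 ± 0.801 RPKM. Uros at 2.77 ± 0.289 and Ppox at 2.70 ± 0.304 RPKM did not differ beyond their spread, nor did Cyb5a and Por. The order of the middle genes varied between groups. In C3H/HeN sham liver Alad reached 168 ± 10.1 RPKM, above the 40.95 to 79.9 RPKM of the groups on the C57BL/6J background; strain and experiment cannot be told apart there.

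**Figure D1:**
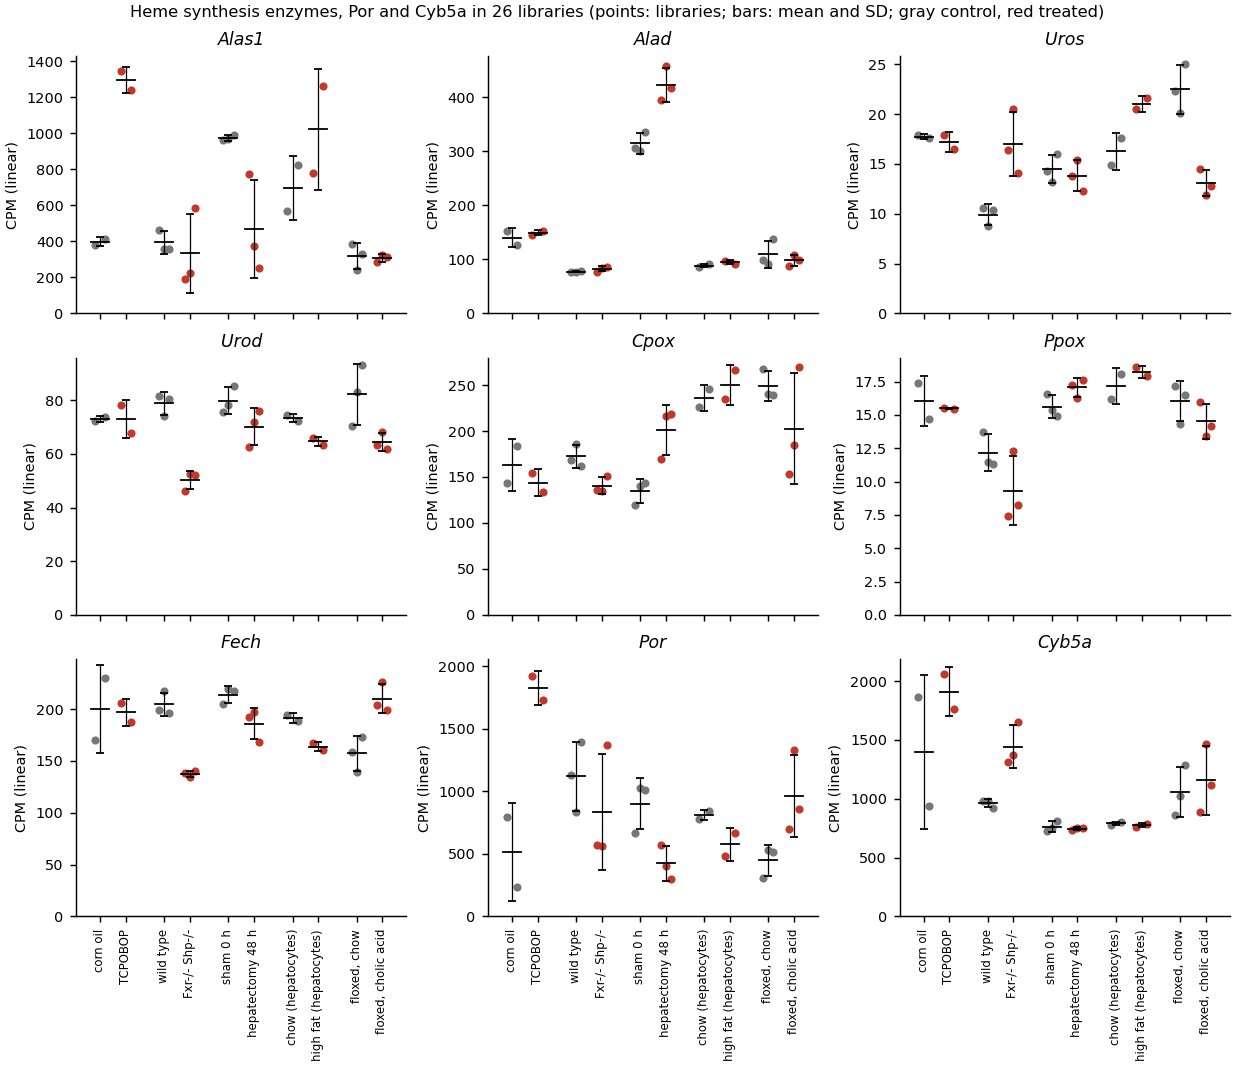
CPM of each of the 9 genes (y axes, linear, from 0) in every library of the 10 groups, with group mean and SD as bars, controls in gray and treated groups in red. Alas1 and Por spread over several-fold ranges between groups and within some groups, whereas Urod, Ppox and Fech stay in narrow ranges.

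Alas1 was higher in both TCPOBOP libraries than in both controls, at 1345 and 1243 CPM. The libraries labelled corn oil 1 and 2 held 382 and 416 CPM. Por read 1927 and 1734 CPM with TCPOBOP, against 794 and 238 CPM in corn oil 1 and 2, and its groups did not overlap either. These were 2 of the 9 genes, and lack of overlap was not particular to them. In a list of heme handling genes 12 of 27 had none, and among P450 genes 24 of 56 tested. The share of all genes without overlap was not counted. Alas1 differed 3.25-fold (log2 fold change 1.70 ± 0.19 SE) and Por 3.55-fold (1.83 ± 0.59 SE). In edgeR's quasi-likelihood test neither passed the threshold, an adjusted p under 0.05 over all genes. The edgeR adjusted p was 0.345 for Alas1, equal to the smallest of any gene, and 0.835 for Por. None of 12785 genes was called (0%), 751 had an unadjusted p under 0.05, and DESeq2's Wald test called 102, among them Alas1 (DESeq2 adjusted p 1.2e-16) and Por (0.0311).

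Leaving out either control library made both genes pass in edgeR, in fits where the lone control is assumed to vary like the treated group. Without the library labelled corn oil 1, the log2 fold change of Alas1 was 1.64 (edgeR adjusted p 0.00094), that of Por 2.95 (0.000157) and that of Cyb5a 1.04 (0.0114). Without corn oil 2 they were 1.76 (0.00167), 1.21 (0.0108) and 0.04 (0.961). Those fits called 1233 and 413 genes. Alas1 and Por were higher with TCPOBOP against either control, and Cyb5a against corn oil 2 alone.

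The library labelled corn oil 1 separated the 3 genes. Its Cyp2b10 level was that of the TCPOBOP libraries, yet its Alas1 level was that of corn oil 2. Cyb5a stood at 1863 CPM there, within the 2057 and 1762 CPM of the TCPOBOP libraries and above the 934 CPM of corn oil 2, while Por at 794 CPM lay between. Other values moved with that library too. Nr1d1, a clock repressor chosen after its values were seen, was at 18.2 CPM in corn oil 1 against 121, 122 and 118 CPM in corn oil 2 and both TCPOBOP libraries. Ppargc1a, a coactivator known to induce Alas1 and chosen likewise, was at 3.64 CPM against 9.10, 5.17 and 4.78 CPM. The hepatocyte markers summed to 45530 CPM in corn oil 1, 97620 in corn oil 2, and 52790 and 50460 with TCPOBOP. The part of these in the Alas1 level was not tested.

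The remaining enzymes had smaller log2 fold changes than Alas1 and Por. Alad, Uros, Urod, Cpox, Ppox and Fech had log2 fold changes between -0.18 and 0.10, and all 6 overlapped between groups. Uros read 17.9 and 17.6 CPM with corn oil against 17.9 and 16.5 with TCPOBOP. Fech varied more, at 169.9 and 230.4 CPM against 205.8 and 187.7, as did Cpox, at 143 and 183 CPM against 154 and 133. Without the library labelled corn oil 1 the log2 fold changes of Cpox, Fech and Alad were -0.35, -0.22 and 0.24.

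RefSeq promoter windows (GRCm38.p6, 250 bases before each start site) were found for 7 of the 9 genes, with 10 start sites. They were searched on both strands for 6 motifs. Stretches of Alas1 and Por are shown because the TCPOBOP, hepatectomy and cholic acid results turn on these genes. Capitals mark, in Alas1 (chr9:106247906-106247935, minus strand), the palindrome GCGCATGCGC known as a nuclear respiratory factor 1 motif. Its first base lies 195 bases before the more downstream of 2 start sites. The palindrome lies downstream of the other start site, whose window is chr9:106247955-106248204. In Por (chr5:135688895-135689035, plus strand) capitals mark GGGCGG, the GC box, or its reverse complement CCGCCC.
Alas1: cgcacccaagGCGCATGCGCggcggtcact
Por: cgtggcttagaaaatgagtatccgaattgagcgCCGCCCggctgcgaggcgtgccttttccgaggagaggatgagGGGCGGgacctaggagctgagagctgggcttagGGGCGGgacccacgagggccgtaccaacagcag
The palindrome occurred in 1 of the 10 windows and in 0.78% of 32851 mouse promoter windows, and GGGCGG in 6 of 10 and 32.7%. CACGTG, the E-box, occurred in 4 of 10 (both Alad sites, Uros and Urod; 6.02% of all windows), and CCAAT in 4 of 10 (33.9%). Both Alad windows overlap, and GGGCGG and CCAAT matches in their shared bases count for each. AGGTCA and TGACNNNGC were in 0 of 10 (14.0% and 10.2% of all). A match is a string of letters and not a shown binding site.

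In the double knockout Uros and Cyb5a rose and Urod, Cpox and Fech fell. These were 2 rises and 3 falls among the 9 genes, 5 in all, where 40.4% of all 13473 genes tested were called (21% raised and 19.4% lowered). Uros read 10.6, 8.73 and 10.4 CPM in wild type and 16.4, 20.5 and 14.1 CPM in the knockout, and every knockout library was higher. Cyb5a rose from 981, 983 and 923 CPM to 1315, 1368 and 1649 CPM, again with no overlap. Their log2 fold changes were 0.77 ± 0.16 and 0.59 ± 0.12 (SE; edgeR adjusted p 0.00519 and 0.00465).

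Urod, which decarboxylates uroporphyrinogen and is the step deficient in porphyria cutanea tarda, fell from 81.7, 74.1 and 80.6 CPM to 46.3, 52.5 and 52.1 CPM. Fech fell from 199.6, 217 and 197 CPM to 138, 135 and 140.2 CPM. All knockout libraries lay below all wild-type libraries for both genes. The log2 fold changes were -0.65 ± 0.09 and -0.57 ± 0.08 (SE), with edgeR adjusted p of 0.000667 and 0.001. Cpox fell too, from 169, 186 and 162 CPM to 136, 135 and 151 CPM (log2 fold change -0.30 ± 0.09 SE, edgeR adjusted p 0.0338). Leaving out 1 library ended the Cpox call in 4 of 6 fits. Over the 9 genes the median log2 fold change was -0.30, against -0.01 over all genes tested.

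Alas1 and Por did not pass in the knockout, and a single library decided both values. Alas1 stood at 193, 222 and 586 CPM in the knockout against 466, 357 and 360.0 CPM in wild type. Por stood at 568, 565 and 1369 CPM against 1130, 835 and 1393 CPM. Knockout replicate 3 was thus above every wild-type library for Alas1 and within their range for Por, and the other 2 knockout libraries were below every wild-type library for both. With all libraries the log2 fold changes were -0.24 ± 0.37 and -0.42 ± 0.34 (SE; edgeR adjusted p 0.634 and 0.352). Without knockout replicate 3 they were -0.92 ± 0.14 and -0.98 ± 0.19 (SE; edgeR adjusted p 0.000733 and 0.00309), and 7 of the 9 genes were called. Ppox (12.2 ± 1.37 to 9.30 ± 2.60 CPM) and Alad (76.6 ± 0.846 to 82.5 ± 4.73 CPM; SD, n = 3) did not pass. Ppox passed without knockout replicate 2 (-0.64, edgeR adjusted p 0.0191) and in a single fit of all 26 libraries (0.0404).

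Other measures moved with this genotype. Reads that aligned to more than 1 place made up 43.2% to 44.1% of all reads in wild type and 25.5% to 26.9% in the knockout. Bile duct markers rose in 4 of 5 genes tested (summed level 27.3 to 38.0 CPM in wild type, 57.4 to 135 in the knockout), and stellate cell markers in 5 of 6 (184 to 310.0 against 414 to 475 CPM). Macrophage markers rose in 2 of 7 genes and fell in 1 (178 to 382 against 261 to 549 CPM). Other leukocyte markers rose in 1 of 2 genes tested (5.25 to 8.70 against 15.4 to 33.1 CPM). Of the 7 hepatocyte markers 4 fell (94320 to 124000 against 65130 to 89060 CPM). Their part in the falls of Urod, Fech and Cpox was not tested. In whole liver, fewer cells of a type and less RNA per cell cannot be told apart.

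In the heme handling list 7 of 27 genes rose and 6 fell in the knockout, where 21% of all genes were raised and 19.4% lowered. Hmox1, the inducible enzyme that degrades heme, stood at 174 ± 71.4 CPM against 22.4 ± 6.41 CPM (SD, n = 3), a log2 rise of 2.96 (edgeR adjusted p 0.000194). It read 246, 175 and 103 CPM in knockout replicates 1 to 3, and the macrophage and leukocyte sums there had the same order. The part of those cells in the Hmox1 level was not tested. The heme exporter Flvcr1 rose by a log2 of 1.31, and the related transporter Flvcr2 by 0.77. In the electron and NADPH supply list 6 of 13 genes tested rose and 0 fell. Cyb5r3, the reductase that reduces cytochrome b5, stood at 657 ± 14.4 CPM against 277 ± 19.5 CPM (SD, n = 3) and rose by a log2 of 1.25, alongside Cyb5a. Pgd and G6pdx of the pentose phosphate pathway rose by 1.68 and 0.87, and Pgrmc1, a heme-binding partner of P450 enzymes, by 0.61. Among 16 regulators 8 fell and 1 rose, and 2 of the falls were the deleted genes Nr0b2 and Nr1h4. Foxo1 fell by 1.37 and Thrb by 1.18 on the log2 scale.

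After partial hepatectomy Alad and Cpox rose and Por fell, 3 of the 9 genes, close to the 30.7% called among all 13753 genes. The 2 rises compare with 16.4% and the 1 fall with 14.3%. Alad, which joins 2 molecules of 5-aminolevulinic acid, read 306, 301 and 336 CPM in sham and 395, 457 and 416 CPM after hepatectomy. Cpox, which works in the mitochondrial intermembrane space, read 119.6, 141 and 143 CPM in sham and 169.6, 216 and 218 CPM after it. Both sets of libraries were separate. The log2 fold changes were 0.43 ± 0.09 and 0.58 ± 0.12 (SE; edgeR adjusted p 0.00887 and 0.00879). The Alad call was lost without sham replicate 2 (edgeR adjusted p 0.0515).

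Por fell from 665, 1027 and 1011 CPM to 569.8, 399.8 and 299.8 CPM, with every hepatectomy library below every sham library. The log2 fold change was -1.09 ± 0.25 (SE; edgeR adjusted p 0.0131). The call was lost without sham replicate 2 or 3 (edgeR adjusted p 0.053 and 0.0556) and in a single fit of all 26 libraries (0.0503).

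Alas1 was at 960.3, 971 and 993 CPM in sham and 773, 374 and 254 CPM after hepatectomy. The sham libraries were close together and the hepatectomy libraries were all lower and far apart. The log2 fold change of -1.06 ± 0.35 (SE) lay at the threshold (edgeR adjusted p 0.0501). It passed with DESeq2's size factors (0.0478), with no filter (0.0129) and without hepatectomy replicate 1 (-1.63, edgeR adjusted p 0.000682). DESeq2's Wald test gave 0.0817. Ppargc1a, at 63.9 ± 6.99 CPM in sham and 19.2 ± 12.1 CPM after hepatectomy (SD, n = 3), dropped by 1.74 in log2 terms (edgeR adjusted p 0.0108). It read 32.8, 14.8 and 9.84 CPM in the hepatectomy libraries, so replicate 1 was the highest and replicate 3 the lowest for Ppargc1a, Alas1 and Por alike. The clock repressors Nr1d1 and Nr1d2, chosen after their values were seen, had the same order. Nr1d1 read 39.0, 16.1 and 1.63 CPM in the hepatectomy libraries and 50.4, 17.0 and 18.5 CPM in sham. Nr1d2 read 109, 91.1 and 21.0 CPM against 118, 95.1 and 83.6 CPM. Replicate 3 was thus below every sham library for both. The part of these genes in the Alas1 and Por levels was not tested.

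The other enzymes moved little after hepatectomy. Fech was lower in every library (214 ± 8.05 to 186 ± 15.3 CPM; SD, n = 3) but did not pass (log2 fold change -0.20, edgeR adjusted p 0.115). Cyb5a stayed at 762 ± 47.3 and 746 ± 12.8 CPM, and Uros, Urod and Ppox overlapped between groups. Hepatocyte markers fell in 4 of 7 genes, from a sum of 128500 to 130900 CPM to 95070 to 105300 CPM, and their part in the fall of Por was not tested.

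In electron and NADPH supply 6 of 13 genes fell and 1 rose after hepatectomy, where 14.3% of all genes were lowered and 16.4% raised. Me1, which makes NADPH from malate, fell by 1.58 on the log2 scale. Fdx1, the ferredoxin that feeds mitochondrial P450 enzymes, fell by 1.10 (186 ± 24.2 to 86.9 ± 8.00 CPM; SD, n = 3), and Cyb5r3 fell by 0.72. In heme handling 2 of 27 rose and 4 fell, with Flvcr2 up by 1.09, the iron-sulfur cluster factor Glrx5 down to 56.7 ± 7.08 from 90.6 ± 10.3 CPM, and Hebp1 down to 142 ± 13.6 from 199 ± 8.84 CPM (SD, n = 3). Of the regulators 2 of 16 rose and 7 fell.

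In hepatocytes of mice on high fat diet none of the 9 genes was called, against 24% of 13892 genes. Alas1 read 569 and 822 CPM on chow and 782 and 1260 CPM on high fat diet, groups that overlap (log2 fold change 0.55 ± 0.27 SE, edgeR adjusted p 0.179). Por read 782 and 841 CPM on chow and 485 and 670.4 CPM on high fat diet (-0.49 ± 0.16 SE, edgeR adjusted p 0.0769). Uros read 14.9 and 17.6 CPM on chow and 20.5 and 21.6 CPM on high fat diet (0.37 ± 0.11 SE, edgeR adjusted p 0.0614). Por was lower and Uros higher in both high fat libraries than in both chow libraries. Urod and Fech were lower and Alad higher in the same way (log2 fold changes -0.18, -0.22 and 0.09), without passing. These were 5 of the 9 genes without overlap. In the heme handling list 16 of 27 genes had no overlap, and among P450 genes 44 of 53 tested. That share over all genes was not counted.

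Single libraries moved the Por and Uros values across the threshold. Por passed without high fat replicate 2 (-0.75, edgeR adjusted p 0.0191) and Uros without chow replicate 2 (0.49, edgeR adjusted p 0.0423), and DESeq2's Wald test called Por (0.017). Cyb5a was close between the diets, at 790 ± 16.5 and 773 ± 16.8 CPM (SD, n = 2). All 5 endothelial and all 6 stellate markers were higher in the high fat hepatocytes (endothelial sum 34.6 to 36.7 against 85.3 to 87.7 CPM). Their part in these values was not tested. In heme handling 3 of 27 rose and 4 fell, against 12.9% of all genes raised and 11.1% lowered. Hmox2, the constitutive heme oxygenase, fell by 0.54 on the log2 scale, Abcb10, a mitochondrial inner membrane transporter, by 0.49, and Blvrb by 0.44. In electron and NADPH supply 2 of 13 fell (Cyb5r1 and Idh1, by 0.55 and 0.36), and 5 of 16 regulators fell, among them Nr1d1 by 1.29.

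On cholic acid Uros fell and Por was higher in every library without passing the test. Uros read 22.3, 20.1 and 25.0 CPM on chow and 14.5, 11.9 and 12.8 CPM on cholic acid, with no overlap. Its log2 fold change was -0.78 ± 0.17 (SE; edgeR adjusted p 0.038), the 1 call among the 9 genes, where 4.77% of 12577 genes were called, 2.27% raised and 2.5% lowered. It passed in 1 of 6 fits that left out 1 library, the fit without chow replicate 3 (-0.69, edgeR adjusted p 0.0301), which called 1345 genes. Over the 6 fits the value lay between -0.85 and -0.69.

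Por read 307, 527 and 518 CPM on chow and 703, 1330 and 856 CPM on cholic acid. The lowest cholic acid library was above the highest chow library. The 2.14-fold difference (log2 fold change 1.10 ± 0.30 SE) had an edgeR adjusted p of 0.0771. It passed with DESeq2's Wald test (0.00656) and with no filter (0.0193), and not without chow replicate 3 (1.21, edgeR adjusted p 0.0578). Fech was likewise higher in every library, at 204, 226 and 199 CPM against 159, 139 and 173.5 CPM (0.42 ± 0.16 SE, edgeR adjusted p 0.166, and 0.49 and 0.0656 without chow replicate 3). Urod was lower in every library, at 64.4 ± 3.38 against 82.2 ± 11.4 CPM (SD, n = 3). Its log2 fold change was -0.35 ± 0.16 (SE; edgeR adjusted p 0.23), and -0.25 without chow replicate 3. With Uros these were the 4 of the 9 genes without overlap. In the heme handling list 9 of 26 genes tested had no overlap, and among P450 genes 27 of 49. That share over all genes was not counted.

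Alas1 overlapped between the diets, unlike Por. It read 387, 242 and 327 CPM on chow and 284, 326 and 312 CPM on cholic acid (log2 fold change -0.05 ± 0.20 SE, edgeR adjusted p 0.903). Cyb5a overlapped as well (1059 ± 214 and 1155 ± 291 CPM; SD, n = 3). Ppargc1a, at 9.18 ± 1.62 CPM on chow and 19.4 ± 0.738 CPM on cholic acid (SD, n = 3), rose by a log2 of 1.08 (edgeR adjusted p 0.0164). Cyb5r3 and Fdx1 fell by 0.99 and 1.13 on the log2 scale, 2 of the 13 genes tested in electron and NADPH supply, with 0 raised. In heme handling 2 of 26 genes tested rose and 1 fell. Flvcr2 rose from 5.68 ± 3.30 to 19.3 ± 4.89 CPM, and Slc25a37, a mitochondrial iron importer also called mitoferrin-1, from 19.6 ± 3.71 to 46.4 ± 14.9 CPM (SD, n = 3). Of the 16 regulators 3 rose and 2 fell, Nr1h4 among the falls. Its log2 fold change was -1.01 (edgeR adjusted p 0.0219), and -0.98 (0.0179) without chow replicate 3. Without chow replicate 3, the fit raised 5.55% and lowered 4.83% of 12958 genes. In it 4 of 27 heme handling genes rose and 1 fell, and the counts for electron supply and regulators were 0 and 2 of 13 and 3 and 2 of 16. Ppargc1a (1.17), Flvcr2 (2.33), Slc25a37 (1.10), Cyb5r3 (-0.85) and Fdx1 (-0.87) passed in that fit as well (log2 fold changes, edgeR adjusted p 0.00909, 0.00506, 0.0441, 0.0122 and 0.0145).

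**Figure D2:**
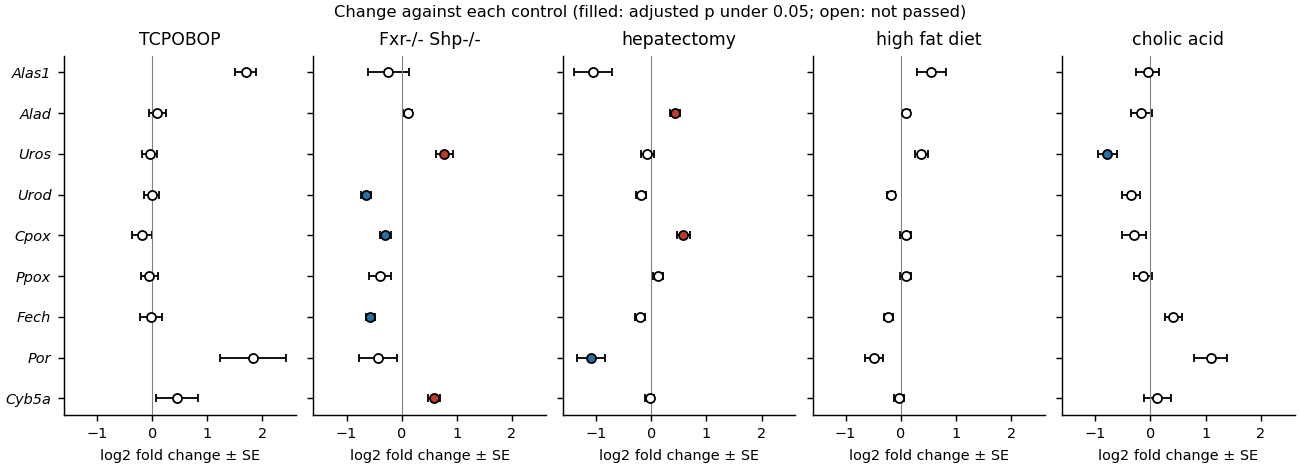
Log2 fold change of treated against control with its standard error (x axes) for the 9 genes (rows) in the 5 comparisons (panels), filled where edgeR's adjusted p was under the threshold. Alas1 and Por lie right of 0 with TCPOBOP and left of 0 after hepatectomy, Por alone lies at 1.10 on cholic acid, and Uros is raised in the knockout and lowered on cholic acid.

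Effects were compared between experiments as interactions in 6 fits that left out the TCPOBOP experiment. Between the knockout and cholic acid effects 2 of 9 genes differed, 1 higher and 1 lower in the knockout, against 13.9% of 13935 genes (7.18% higher, 6.74% lower). Uros differed by 1.56 ± 0.23 (log2, knockout minus cholic acid, SE; edgeR adjusted p 0.00105) and Fech by -0.98 ± 0.17 (SE; edgeR adjusted p 0.00222). Uros rose in the knockout and fell on cholic acid, while Fech fell in the knockout and did not pass on cholic acid. Both differences passed in all 12 fits that left out 1 library. The Por difference of -1.52 ± 0.51 (SE) had an edgeR adjusted p of 0.0675, and passed without knockout replicate 3 (-2.07, edgeR adjusted p 0.00903).

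Between cholic acid and hepatectomy Por had the largest difference of the 9 genes. Its value of 2.18 ± 0.43 (log2, SE; edgeR adjusted p 0.00634) also passed in all 12 fits that left out 1 library, where it ranged from 1.88 to 2.45. In that comparison 4 of 9 genes differed (13% of 13985 genes; 5.01% higher, 8.01% lower). Por and Fech (0.61) were higher, and Uros (-0.71) and Cpox (-0.89) lower, under cholic acid. The Uros call was lost in 7 of the 12 fits without 1 library, and those of Fech and Cpox in 9 each. Por under cholic acid against high fat diet differed by 1.57 ± 0.43 (SE; edgeR adjusted p 0.0585). Experiments differ in strain, tissue, feeding and age, which cannot be told apart from these differences.

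The knockout and hepatectomy effects differed for 5 of 9 genes, against 31.5% of 14755 genes (15.4% higher, 16% lower). Uros (0.86) and Cyb5a (0.63) were higher and Urod (-0.45), Cpox (-0.86) and Fech (-0.36) lower in the knockout. Uros, Cpox and Cyb5a passed in all 12 fits that left out 1 library, Urod in 9 and Fech in 3. Against high fat diet the knockout differed for 2 of 9 genes (16.1% of 14280 genes; 7.98% higher, 8.11% lower), Urod (-0.46) and Cyb5a (0.62), calls lost in 7 and 5 of 10 fits without 1 library. High fat diet differed from hepatectomy for 1 gene, Alas1 (1.63 ± 0.55 SE, edgeR adjusted p 0.0472; 29.2% of 14572 genes, 15.3% higher and 13.8% lower), a call lost in 7 of 10 fits without 1 library. Cholic acid differed from high fat diet for 1 gene, Uros (-1.17 ± 0.22 SE, edgeR adjusted p 0.0162; 6.43% of 13339 genes, 2.68% higher and 3.75% lower), lost in 4 of 10.

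P450 transcripts, the consumers of heme and electrons, were counted beside their supply. The P450 list holds 75 genes of families Cyp1 to Cyp4. In the knockout 24 of 54 genes tested rose and 11 fell (21% and 19.4% of all genes), with Cyp2b10 at 371 ± 73.6 against 50.7 ± 20.6 CPM (SD, n = 3) and Cyp2d9 down from 2182 ± 20.3 to 45.1 ± 17.2 CPM. After hepatectomy 3 of 51 rose and 19 fell (16.4% and 14.3% of all genes), with Cyp2a5 down from 944 ± 106 to 391 ± 51.8 CPM. On high fat diet 9 of 53 rose and 25 fell (12.9% and 11.1%), with Cyp1a2 down from 634 ± 40.0 to 120 ± 13.9 CPM (SD, n = 2). On cholic acid 7 of 49 rose and 13 fell (2.27% and 2.5%), and 7 of 50 and 18 without chow replicate 3 (5.55% and 4.83%), with Cyp2a5 up from 493 ± 197 to 2438 ± 1452 CPM and Cyp2c54 down from 389 ± 79.5 to 84.7 ± 27.9 CPM. Both passed without chow replicate 3 too (log2 fold changes 2.68 and -2.04, edgeR adjusted p 0.0192 and 0.0073). Near-identical members of these families share reads, so single members are uncertain.

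The summed P450 level was similar in knockout and wild type, at 18520 ± 1805 and 18500 ± 467 RPKM (SD, n = 3), although single members rose and fell. Its sign depends on the scale there, with a log2 difference of -0.002 by length, 0.146 over families 1 to 3 and 0.185 in CPM. It was lower in every library after hepatectomy (7675 ± 727 against 10890 ± 353 RPKM) and on high fat diet (9618 ± 29.1 against 13690 ± 151 RPKM; SD, n = 2). On cholic acid it read 14320 ± 3240 against 13190 ± 628 RPKM. The libraries labelled corn oil 1 and 2 were far apart, at 26130 and 11170 RPKM, and the first lay between the 27820 and 25270 RPKM of the TCPOBOP libraries. Reads that aligned to more than 1 place are in none of these sums. They made up 43.2% to 44.1% of reads in wild type and 25.5% to 26.9% in the knockout. Their part in the sums of those 2 groups, and in shares of them, was not tested.

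Por was then set against that sum. It made up 1.54%, 1.86% and 1.54% of the summed P450 RPKM on cholic acid, against 0.602%, 0.943% and 0.990% on chow, with no overlap (two-sided exact permutation p 0.1, the smallest that 3 against 3 allows). With TCPOBOP it was 1.72% and 1.71%, against 0.756% and 0.530% in the libraries labelled corn oil 1 and 2, where the exact permutation p cannot go below 0.33. Both controls lay under the TCPOBOP libraries in this ratio although their P450 sums were far apart. In the knockout (1.09% ± 0.492 against 1.499% ± 0.338) and after hepatectomy (1.37% ± 0.383 against 2.05% ± 0.409; SD, n = 3) the ratio overlapped between groups.

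Alas1 and Cyb5a gave other orders. Alas1 was 0.783% and 0.797% of the P450 sum with TCPOBOP, 0.237% in the library labelled corn oil 1 and 0.602% in corn oil 2. It was also separate on high fat diet, at 1.32% and 2.12% against 0.668% and 0.981% on chow. Alad, Uros, Urod, Cpox, Ppox, Fech and Cyb5a were higher there in this ratio too, and the P450 sum itself was lower. Alas1 per P450 level overlapped in the knockout, after hepatectomy and on cholic acid. Cyb5a made up 1.68% ± 0.0985 in wild type and 2.51% ± 0.0656 in knockout livers (SD, n = 3; exact permutation p 0.1). Its share was also higher in every library after hepatectomy (3.15% against 2.25%) and on high fat diet (2.59% against 1.86%, means). In both, the P450 sum was lower and Cyb5a itself was close between groups. Its means were 762 and 746 CPM in sham and hepatectomy, and 790 and 773 CPM on chow and high fat diet. Alad, Uros, Cpox, Ppox and Fech were likewise higher per P450 level in every hepatectomy library. The Cyb5a share overlapped in the TCPOBOP and cholic acid experiments. With the P450 sum taken in CPM, Por per P450 level on cholic acid differed by 0.68 on the log2 scale, against 0.99 by length.

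**Figure D3:**
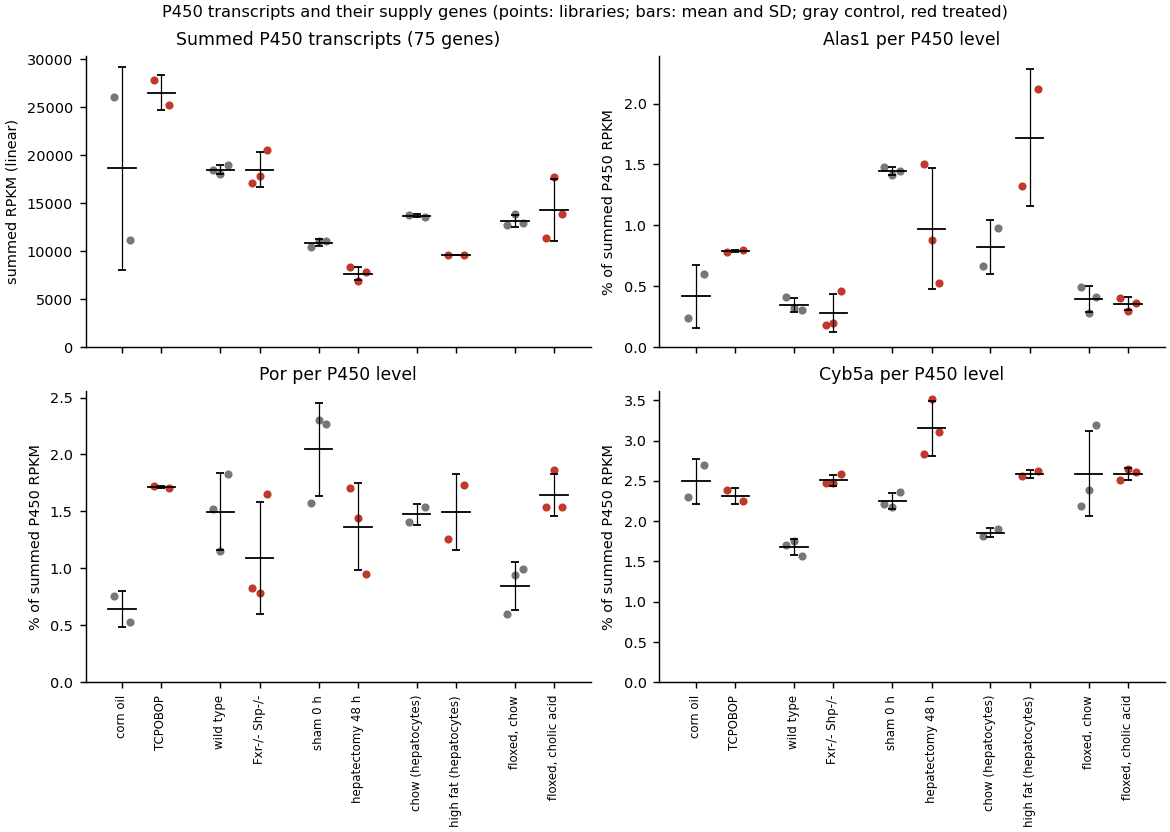
Summed P450 level in RPKM and the share that Alas1, Por and Cyb5a make of it in percent (y axes, linear, from 0) in every library, with group mean and SD as bars, controls in gray and treated groups in red. Por per P450 level is higher in all TCPOBOP and cholic acid libraries than in their controls, and the summed P450 level of the library labelled corn oil 1 lies among the TCPOBOP libraries.

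The genes most like Alas1 and Por over the 26 libraries were sought among 11928 genes, by Pearson's r of log2 CPM deviations from the mean of each experiment. These are the highest values of that search, given as a description without a test, and libraries of an experiment share its treatment. Nearest to Alas1 were Slc25a51, a mitochondrial NAD carrier (r = 0.783), A930033H14Rik (0.779) and the zinc transporter Slc30a9 (0.767). Nearest to Por were Rhbdd2 (0.952), Papss2, which makes the sulfate donor of sulfation (0.845), and Mettl13 (0.844).

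Rhbdd2, a rhomboid-domain gene, is also the neighbour of Por on chromosome 5, on the same strand and ending 23584 bases before it. Spearman's rho was 0.945, and r was 0.943 without corn oil 2 and chow replicate 1 of the floxed mice, the libraries farthest from the median of Por. Within the experiments with 6 libraries r was 0.995 (knockout), 0.922 (hepatectomy) and 0.926 (cholic acid). Rhbdd2 read 21.1, 22.0 and 43.0 CPM in the knockout, with replicate 3 high as for Por. It read 48.1 and 43.5 CPM with TCPOBOP against 25.6 and 16.5 CPM in corn oil 1 and 2. It passed the test in 0 of 5 comparisons. Tmem120a, chosen after its values were seen, lies on the other strand with its 3′ end 158 bases past the 3′ end of Por and had r = -0.366 (rho -0.523). It was raised in the knockout (log2 fold change 0.62, edgeR adjusted p 0.00384) and lowered on cholic acid (-1.25, edgeR adjusted p 0.0366, and -0.87 and 0.00741 without chow replicate 3), where Por went the other way without passing.

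**Figure D4:**
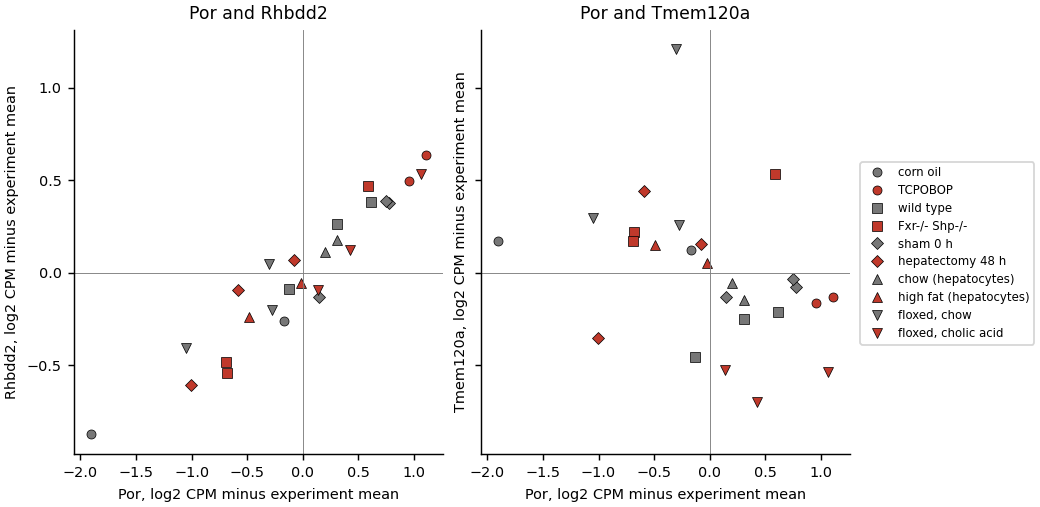
Log2 CPM minus the mean of its experiment for Rhbdd2 (left) and Tmem120a (right) on the y axes against the same for Por on the x axes, 1 point a library, shape by experiment and color by control (gray) or treated (red). The 26 points lie along a rising line for Rhbdd2 (r = 0.952) and scatter for Tmem120a (r = -0.366).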

How the data were processed

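The measurements are RNA-seq read counts of 26 libraries prepared, per the labels' protocols, with the TruSeq Stranded mRNA kit. The authors deposited them as whole-number counts per gene in 1 table. The submitters' processing notes name bcl2fastq 2.17.1.14, Trimmomatic, STAR 2.4.2a, Picard 1.119 and HTSeq and the builds GRCm38 and mm10. Whether counting used strand is not given in the sources used here. Lines that name no gene (23.0% to 48.6% of all reads) were left out. Symbols matched 47224 of 47643 identifiers.

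Each experiment was fitted alone with edgeR 4.0.16 (R 4.3.3, limma 3.58.1), using filterByExpr (count 10, total 15), TMM, the quasi-likelihood F test and Benjamini-Hochberg adjustment over all genes, with a threshold of 0.05. An SE is the size of the log2 fold change over the square root of F. RPKM used exon lengths of GENCODE M21 (GRCm38). Genes on the other strand overlap 17.5% of the exonic length of Ppox, 7.53% of Alas1 and 3.06% of Cpox. Alternatives were DESeq2 1.42.0 (size factors, Wald test), no filter, a replicate block, a single fit of all libraries and leaving out each library. Other genes named for cholic acid were also fitted without chow replicate 3, an alternative chosen after seeing the data. The procedure was tested on simulated data.

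Genes, lists and tests were chosen with earlier results of these data known. All 9 genes were named. Eligible besides were the 3 largest called rises and falls among P450 genes with an average log2 CPM of at least 5, Cyp2b10, and the 4 largest called changes of each other list at an average of at least 1.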

Additional observations from a re-analysis of the deposited data

Results flagged for a closer look

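Differences between the effects of 2 experiments that passed the interaction test (edgeR) were found for 7 of the 9 genes, 15 in all, and for neither Alad nor Ppox. In the same 6 fits, each taken singly, 6.43% to 31.5% of all genes passed. The share of all genes that passed in at least 1 of the 6, which would match the 7 of 9, was not counted. Uros, the enzyme that closes the porphyrin ring, had 4. They were knockout minus cholic acid 1.56, knockout minus hepatectomy 0.86, cholic acid minus hepatectomy -0.71 and cholic acid minus high fat diet -1.17 (log2). Its controls differed as well, at 9.92 ± 1.04 CPM in wild type and 22.5 ± 2.45 CPM in chow-fed floxed mice (SD, n = 3), and the treated groups read 17.0 ± 3.22 and 13.1 ± 1.31 CPM.

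Fech had 3, which were knockout minus cholic acid -0.98, knockout minus hepatectomy -0.36 and cholic acid minus hepatectomy 0.61. Cpox had 2, knockout minus hepatectomy -0.86 and cholic acid minus hepatectomy -0.89. Urod had 2, knockout minus hepatectomy -0.45 and knockout minus high fat diet -0.46, and Cyb5a had 0.63 and 0.62 for the same pairs. Por had 1, cholic acid minus hepatectomy 2.18, and Alas1 had 1, high fat diet minus hepatectomy 1.63.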

How the results depend on the processing

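The knockout calls of Uros, Urod, Fech and Cyb5a and the hepatectomy call of Cpox passed under every alternative run, including each fit without 1 library. The 18 list and neighbour genes named for cholic acid and run without chow replicate 3 kept their direction and side of the threshold, in an alternative chosen after seeing the data. Groups of 2 or 3 libraries limit the precision of all values.

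For TCPOBOP, DESeq2's Wald test called 102 genes and 2 of the 9, and a single fit of all 26 libraries called 9 genes. The log2 value of Urod there was 0.0047 with DESeq2's size factors, 0.0048 with the Wald test, 0.0019 with no filter and 0.0073 in the single fit, against -0.0035. For cholic acid the Wald test called 1379 genes and 2 of the 9, no filter 955 and 2, and the single fit 3132 and 3. For high fat diet the Wald test called 1 of the 9 and the single fit 1735 genes. The cause was not tested.

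The summed P450 level (log2) was 0.146 in the knockout and -0.535 on high fat diet over families 1 to 3. In CPM it was 0.185 in the knockout, -0.585 with the high fat diet and 0.405 with cholic acid. Por per P450 level on cholic acid was 0.68 in CPM. Cyb5a per P450 level was 0.433 (families 1 to 3) and 0.394 (CPM) in the knockout, 0.553 (CPM) on high fat diet and -0.29 (CPM) on cholic acid.

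Libraries share replicate numbers only. Deviations of same-numbered libraries correlated at 0.126 (TCPOBOP), -0.221 to 0.003 (knockout), -0.068 to 0.119 (hepatectomy), 0.128 (high fat diet) and 0.094 to 0.154 (cholic acid), so they were not treated as pairs. The replicate block brought 7 values past the threshold and took 8 back below it. This count covers all comparisons of the 9 genes but only some of their differences. Those were the differences that had passed, and those of Por where its 2 effects had opposite signs. Other differences that the block may have brought past the threshold are not in it. With the replicate block 3 of the 9 genes passed on high fat diet. These were Alas1, Uros and Por (edgeR adjusted p 0.0173, 0.0409 and 0.0302). Alas1 passed after hepatectomy (0.0346) and Por on cholic acid (0.0447), while Cpox in the knockout (0.0723) and Uros on cholic acid (0.0726) did not. For the differences the block left 0 of the 9 for knockout minus high fat diet and 1 for cholic acid minus hepatectomy. It gave 446 genes and 2 of the 9 for cholic acid minus high fat diet, and 2 for high fat diet minus hepatectomy.

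Leaving out 1 library gave 0 to 1233 genes and 0 to 3 of the 9 for TCPOBOP, 2554 to 4217 and 1 to 4 after hepatectomy, 1141 to 2644 and 0 to 1 on high fat diet, and 189 to 1345 and 0 to 1 on cholic acid. For the differences it gave 3 to 6 of the 9 for knockout minus hepatectomy, 1269 to 2768 genes and 0 to 4 for knockout minus high fat diet, and 1089 to 2495 and 1 to 4 for cholic acid minus hepatectomy. It gave 76 to 1958 and 0 to 3 for cholic acid minus high fat diet, and 2804 to 4370 and 0 to 2 for high fat diet minus hepatectomy.

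Some values changed sign in those fits. For TCPOBOP Alad ranged from -0.0284 to 0.2378, Uros from -0.0919 to 0.0392, Urod from -0.0971 to 0.1172, Cpox from -0.3452 to 0.0105, Ppox from -0.1645 to 0.0784 and Fech from -0.2239 to 0.2145. Alas1 in the knockout ranged from -0.9172 to 0.0292. After hepatectomy Uros ranged from -0.157 to 0.0087 and Cyb5a from -0.0704 to 0.0172, and on high fat diet Cpox from -0.0124 to 0.1721. On cholic acid Alas1 ranged from -0.2168 to 0.1129, Alad from -0.2759 to 0.0371 and Cyb5a from -0.0785 to 0.2933.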

Other observations

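Alas2, the form of 5-aminolevulinate synthase used by red cell precursors, was measured in every library. In livers of floxed mice it read 128, 106 and 132 CPM on chow and 48.7, 24.2 and 40.9 CPM on cholic acid (log2 fold change -1.69 ± 0.26 SE, edgeR adjusted p 0.0123). Without chow replicate 3 the values were -1.62 and 0.0121. In the knockout it read 23.6, 25.8 and 12.1 CPM against 58.1, 52.5 and 54.1 CPM in wild type (-1.42 ± 0.24 SE, edgeR adjusted p 0.00183). All treated libraries were below all controls in both. The globin transcript Hbb-bs overlapped between groups in both. It read 83.1, 50.2 and 192 CPM on chow and 101.5, 99.9 and 21.1 CPM on cholic acid, and 62.7, 41.5 and 67.2 CPM in wild type against 74.7, 92.7 and 54.5 CPM in the knockout. Of 6 erythroid markers tested, Alas2 among them, 2 fell in the knockout and 1 on cholic acid, and 0 rose. Of all genes, 19.4% and 2.5% were lowered. The median log2 fold changes of these markers were 0.07 and -0.82, against -0.007 and 0.01 over all genes tested. In isolated hepatocytes Alas2 stood at 131, 147, 130.3 and 108.5 CPM while Hbb-bs stood at 0.928, 0.694, 3.89 and 1.01 CPM. There 3 or 4 of the 9 erythroid markers in the table were at 0, against 0 to 3 in the whole-liver libraries.

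The heme transporter family gene Flvcr2 was raised in 4 of the 5 comparisons, by a log2 of 0.77 in the knockout and 1.09 after hepatectomy. The high fat value was 0.65 and the cholic acid value 1.76 (edgeR adjusted p 0.00684, 0.00165, 0.0498 and 0.0424 in that order; cholic acid without chow replicate 3, 2.33 and 0.00506). Its level is low, at 2.88 to 24.9 CPM over all 26 libraries. Cyb5r3, the reductase partner of cytochrome b5, was raised in the knockout (log2 fold change 1.25) and lowered after hepatectomy (-0.72) and on cholic acid (-0.99, and -0.85 without chow replicate 3), with no overlap between groups in any of these; the difference between those effects was not tested.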
